A study of Bos taurus with 9 samples.

Results

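The sites described here are 16791 regions of the cattle genome that carried a peak of H3K27ac in control cells, were overlapped by an H3K27ac peak again after butyrate, and were overlapped by no H3K9ac peak in either condition. They were chosen by these measured peaks, with an overlap of at least 1 bp, on the 29 autosomes and the X chromosome. They made up 17.7% (95% Wilson interval 17.5% to 18.0%) of the 94603 nuclear H3K27ac peaks of control cells, and the 8 peak lists of the series together held 673837 nuclear peaks. The cells were MDBK cells, an established epithelial line from bovine kidney. Control cells were compared with cells given 5 mM butyrate for 24 h, and chromatin immunoprecipitation followed by sequencing was done with antibodies to H3K9ac, H3K27ac, RNA polymerase II (Pol II) and H3K9me3. Each antibody and condition had 1 library, so no difference between conditions could be tested and no p-value is given. Control libraries carried lane number 4 and butyrate libraries lane number 5, so lane and treatment cannot be told apart.

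H3K27ac is an acetyl mark on histone H3 that is laid down by the acetyltransferases p300 and CBP and is found at active enhancers and active promoters. H3K9ac, set mainly by GCN5 and PCAF, is strongest at active promoters, and H3K27ac with little H3K9ac is often read as enhancer chromatin. Pol II transcribes messenger RNA and is also found at some enhancers, and H3K9me3 marks silent heterochromatin. Butyrate, a short-chain fatty acid formed by fermentation in the rumen, inhibits histone deacetylases, the enzymes that remove both acetyl marks.

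All values below come from the position of peaks. Each list placed its peaks on the assembly UMD3.1 by chromosome and first and last base, without a height, and the number of reads behind each list was not used here. The lists differed in size. H3K27ac had 94603 nuclear peaks in control cells and 187465 after butyrate, H3K9ac had 74114 and 115104, Pol II had 56225 and 31225, and H3K9me3 had 25623 and 89478. A share of overlapped sites depends on these numbers as well as on the sites. Intervals cover counting error only, since peaks near each other are not independent.

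The control H3K27ac peaks without H3K9ac were retained less often than those with it. Of the 40121 control peaks that met no H3K9ac peak in either condition, 41.9% (41.4% to 42.3%) were overlapped by a butyrate H3K27ac peak, which gave the 16791 sites. Among all control H3K27ac peaks the share was 65.9%, and among the 43036 with H3K9ac in control cells it was 85.2% (84.9% to 85.6%). Since H3K9ac and retention chose the sites, this is a description and not a result about them. The remaining peaks without H3K9ac, 23330 in number, met no butyrate H3K27ac peak and are called lost below. A further 8854 persistent peaks met H3K9ac only after butyrate, and 36675 persistent peaks met H3K9ac in control cells, of which 22520 met it in both conditions.

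Longer control peaks were retained more often. Without H3K9ac it was 30.1% for peaks of the shortest length listed, just under 200 bp, 40.0% from there to under 300 bp, 51.3% from 300 to under 500 bp, 68.5% from 500 to under 1000 bp and 80.6% (71.5% to 87.4%) for the 93 peaks of 1000 bp or more. In each length class the share was lower than that of peaks with H3K9ac in control cells, which went from 71.6% to 98.6%. Peaks with H3K9ac only after butyrate, 8854 retained and 2592 lost, were in neither group. Leaving out these mostly retained peaks lowered the share without H3K9ac. The same lists chose the sites, so this too is a description.

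**Figure D1:**
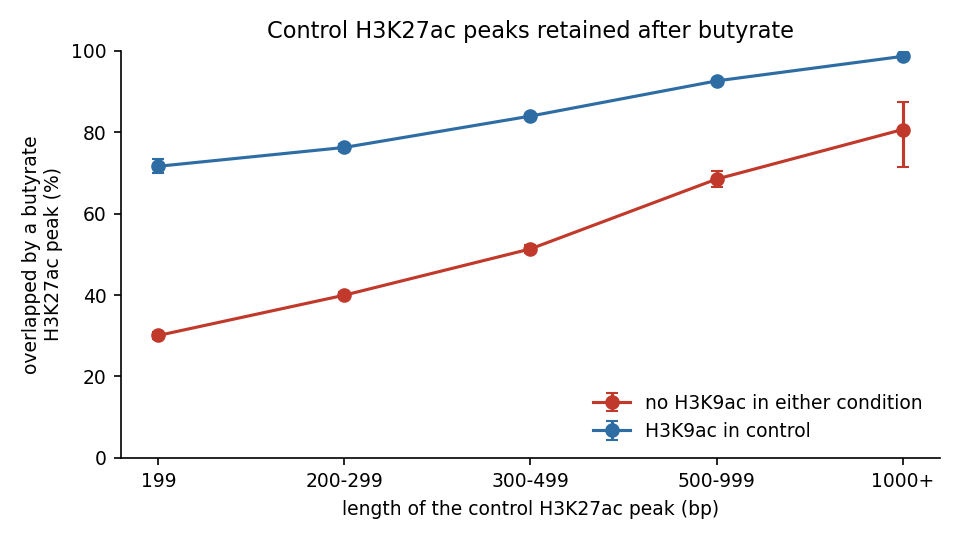
Share of control H3K27ac peaks overlapped by a butyrate H3K27ac peak (percent, y axis) by length of the control peak (bp, x axis), for peaks without H3K9ac in either condition (red) and with H3K9ac in control cells (blue). Points are shares of 1 pair of lists and bars are 95% Wilson intervals, and the red points go from 30.1% to 80.6%, below the blue point in every length class. Peaks with H3K9ac only after butyrate are in neither group.

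The sites were short, discrete peaks. Their median length was 261 bp (259 to 263 bp), with quartiles of 213 and 350 bp, and together they covered 5.21 Mb. At the shortest length listed were 16.3% of them, 9.18% reached 500 bp, and 75 sites reached 1000 bp. Peaks that gained H3K9ac after butyrate were of the same median size (262 bp), lost peaks were shorter (230 bp) and persistent peaks with H3K9ac in control cells were longer (437 bp). The longest site, chr15:66003478-66005328, measured 1851 bp, whereas the longest persistent peak with H3K9ac in control cells measured 7401 bp.

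After butyrate the H3K27ac peak over most sites was wider. The median length of the longest butyrate peak over a site was 384 bp, with quartiles of 266 and 608 bp, and the median log2 ratio of butyrate to control length was 0.44 (0.42 to 0.46). The butyrate peak was longer at 11759 sites (70.0%, 69.3% to 70.7%), shorter at 4720 (28.1%) and equal at 312. Among all retained control H3K27ac peaks 68.4% were longer, so the share at the sites was near that of the whole list. The median length of all H3K27ac peaks was 288 bp in control cells and 326 bp after butyrate. The 16.3% of sites at the shortest length listed could only stay equal or become longer. Persistent peaks that gained H3K9ac had a median log2 ratio of 0.97 and were longer in 84.7%, and those with H3K9ac in control cells had 0.34 and 63.7%. The length reached at least 2 times that in control cells at 5023 sites (29.9%) and at most 0.5 times at 659 sites (3.92%).

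**Figure D2:**
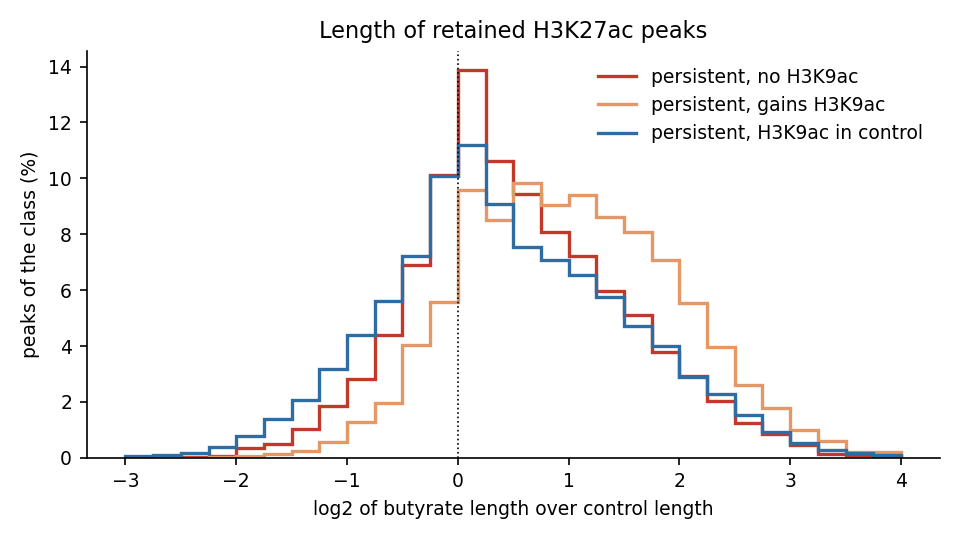
Distribution of the log2 ratio of butyrate to control peak length (x axis) as the percent of each class in bins of 0.25 (y axis), for the sites (red), persistent peaks that gained H3K9ac (orange) and persistent peaks with H3K9ac in control cells (blue). Values beyond either end are counted in the outermost bin, and the sites peak just above 0 with a median of 0.44, between the medians of 0.34 (blue) and 0.97 (orange).

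The length after butyrate depended little on the length before it. The shortest sites were covered by butyrate peaks with a median of 380 bp, those up to 300 bp by 371 bp, those up to 500 bp by 396 bp, those up to 1000 bp by 418 bp and those of 1000 bp or more by 422 bp. The median log2 ratio therefore went from 0.93 at the shortest sites, of which 94.4% were longer after butyrate, to -1.61 at those of 1000 bp or more, of which 3 of 75 were. The shortest sites had the least length of both H3K27ac lists, so a shorter butyrate peak was not possible there. In all retained peaks the butyrate median went from 466 bp at the shortest control peaks to 988 bp at those of 1000 bp or more, a wider range than at the sites.

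The butyrate peak did not always sit squarely over the site. A site was covered over a median of 86.4% of its length, 6188 sites (36.9%) lay wholly inside a butyrate peak, and 3199 (19.1%) were covered over less than 50% of their length. Over all retained control H3K27ac peaks these values were 92.2%, 41.4% and 13.3%. The median shift of the peak centre was 106 bp. At 2537 sites (15.1%) the butyrate peak also overlapped another control H3K27ac peak, which carried H3K9ac in 1397 cases (8.32% of sites), and 622 sites (3.70%) met more than 1 butyrate peak. Over all retained control H3K27ac peaks the shares were 23.8%, 17.7% and 9.2% in the same order. At the edge of the rule, 142 sites shared 10 bp or less with their butyrate peak, such as chr1:77879931-77880440 with 1 bp, and 139 lost peaks lay at a gap of 10 bp or less from a butyrate peak. Likewise 177 sites lay within 10 bp of an H3K9ac peak, and 195 persistent peaks were kept out by an H3K9ac overlap of 10 bp or less.

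The 5 longest sites were all shorter after butyrate. The longest went from 1851 bp to 570 bp. The site chr7:64148697-64150469 went from 1773 bp to 436 bp, and chr17:71419739-71421424 from 1686 bp to 273 bp, the largest fall of any site. The site chr16:53318729-53320398 went from 1670 bp to 406 bp under 3 butyrate peaks, and chrX:103570658-103572297 from 1640 bp to 711 bp under 2. The 5 largest falls were 4 of these sites and chr5:26094323-26095905, which went from 1583 bp to 293 bp.

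The 5 largest gains in length were all at sites taken into a wide butyrate peak that also covered other control peaks. At chr15:41106729-41107071 a control peak of 343 bp lay under a butyrate peak of 4992 bp that covered 6 control H3K27ac peaks. The site chr12:51089983-51090200 went from 218 bp to 4157 bp, with 5 control peaks under the butyrate peak. The other sites of this kind were chr5:19597927-19598165 (239 to 3879 bp), chr3:77414570-77414805 (236 to 3844 bp) and chr5:60355211-60355531 (321 to 3863 bp), with 4, 3 and 2 control peaks. None of the 5 met a Pol II peak in either condition, and each lay within 1 kb of an H3K9ac peak of control cells and of butyrate cells.

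Pol II, which the rule did not use, was found at few of the sites. A Pol II peak overlapped 516 sites in control cells (3.07%, 2.82% to 3.35%), against 5.62% of all control H3K27ac peaks. After butyrate it overlapped 843 sites (5.02%, 4.70% to 5.36%), against 12.8% of all control H3K27ac peaks. Both shares were below those of the whole list, and the ratio of butyrate to control was smaller at the sites. The share was higher after butyrate although the Pol II list was shorter then. Of all Pol II peaks listed, 0.916% lay on a site in control cells and 2.71% after butyrate, while 9.44% and 40.1% lay on any control H3K27ac peak.

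Among the most similar classes, lost peaks met Pol II in 3.59% of cases in control cells and again in 3.59% after butyrate. Persistent peaks that gained H3K9ac met it in 7.21% and 12.9%, and persistent peaks with H3K9ac in both conditions in 10.5% and 29.2%. Persistent peaks with H3K9ac in control cells alone met it in 3.31% (3.02% to 3.61%) and 13.7%. Their share in control cells was thus near that at the sites. In control cells the share at the sites was below that at lost peaks (3.36% to 3.84%), but this order turned without chromosomes 5 and 14, where 11.6% of lost peaks met Pol II. On the other chromosomes the control share was 2.89% (2.64% to 3.17%) at the sites and 2.66% (2.45% to 2.89%) at lost peaks. After butyrate Pol II was at more of the sites than of the lost peaks, with intervals that did not overlap, also without chromosomes 5 and 14 (4.94% and 3.32%). It was at fewer of the sites than of the persistent peaks that gained H3K9ac, had it in control cells alone or had it in both conditions.

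The share of sites with Pol II did not go up with length, whereas that of persistent peaks with H3K9ac in both conditions did. In control cells it was 4.68% (3.95% to 5.54%) at sites of the shortest length and 1.23% (0.778% to 1.93%) at those from 500 to under 1000 bp. After butyrate it was between 4.70% and 5.67% in the 4 length classes under 1000 bp. Lost peaks were like the sites in control cells, with 4.73% at the shortest length and 0.740% from 500 to under 1000 bp. After butyrate the share at lost peaks went up, from 2.6% to 5.3% in these length classes. Persistent peaks with H3K9ac in both conditions went from 16.4% at the shortest length to 50.9% at 1000 bp or more after butyrate, whereas 5 of the 75 sites of that length (6.67%, 2.88% to 14.7%) met Pol II. Persistent peaks with H3K9ac in control cells alone were like the sites in control cells, with Pol II at 5.98% of those of the shortest length and 2.61% of those of 1000 bp or more, but after butyrate they went from 10.6% to 18.7%.

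Mostly different sites carried Pol II before and after butyrate. It was present in control cells alone at 455 sites, after butyrate alone at 782, in both at 61 and in neither at 15493 (92.3%). The butyrate H3K27ac peak was longer at 82.9% (79.1% to 86.0%) of the sites with Pol II in control cells alone, at 72.6% (69.4% to 75.6%) of those with Pol II after butyrate alone, at 83.6% (72.4% to 90.8%) of those with it in both and at 69.5% (68.7% to 70.2%) of those with neither. The median log2 length ratio was 0.77, 0.53, 0.63 and 0.42 in that order. The sites with Pol II in control cells alone were also shorter in control cells, with a median of 234 bp against 262 bp for those with neither.

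Pol II was nearer to the sites after butyrate than before, as it was to control H3K27ac peaks in general. The median distance from a site to the nearest Pol II peak was 12.1 kb (11.8 to 12.4 kb) in control cells and 7.79 kb (7.52 to 8.05 kb) after butyrate, and over all control H3K27ac peaks it was 9.86 kb and 6.04 kb. A Pol II peak lay within 1 kb of 9.84% of the sites in control cells and of 17.6% after butyrate. Over all control H3K27ac peaks the values were 13.5% and 26.0%, for lost peaks 9.96% and 11.6%, and for persistent peaks with H3K9ac in control cells 16.2% and 39.6%. For lost peaks the median distance was 12.9 kb and 15.2 kb, so it was longer after butyrate there.

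The 5 longest of the 61 sites with Pol II in both conditions differed in how their length moved. The longest, chr26:45604851-45605850, was 1000 bp in control cells and 1012 bp after butyrate. The site chr9:19950883-19951759 went from 877 bp to 729 bp. At chr5:48763883-48764603 the H3K27ac peak had the same start and end in both conditions (721 bp), and it also met an H3K9me3 peak after butyrate. The site chr14:9562076-9562762 went from 687 bp to 1577 bp and chr29:1058914-1059511 from 598 bp to 914 bp, the latter at 6 bp from an H3K9ac peak of control cells.

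H3K9me3 was rarer still at the sites. It overlapped 223 sites in control cells (1.33%, 1.17% to 1.51%) against 2.63% of all control H3K27ac peaks, and 296 sites after butyrate (1.76%, 1.57% to 1.97%) against 3.34%. The H3K9me3 list grew from 25623 to 89478 peaks, and the part of it that lay on a site was 0.866% in control cells and 0.332% after butyrate, while the part on any control H3K27ac peak was 9.66% and 3.51%. Persistent peaks with H3K9ac in control cells alone met H3K9me3 in 1.29% and 1.58% of cases, near the values at the sites. Lost peaks met H3K9me3 in 1.83% of cases in control cells and in 4.55% (4.29% to 4.83%) after butyrate. In control cells this difference from the sites was seen with chromosomes 5 and 14 included, and without them the share was 1.25% (1.11% to 1.41%) at lost peaks and 1.23% (1.07% to 1.42%) at the sites. After butyrate it was 3.41% at lost peaks and 1.56% at the sites without those chromosomes. Of the 296 sites with the mark after butyrate, 24 also carried it in control cells and 272 did not. In all, 7 sites met the Pol II and H3K9me3 lists of both conditions, and 15107 (90.0%) met none of these 4 lists.

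**Figure D3:**
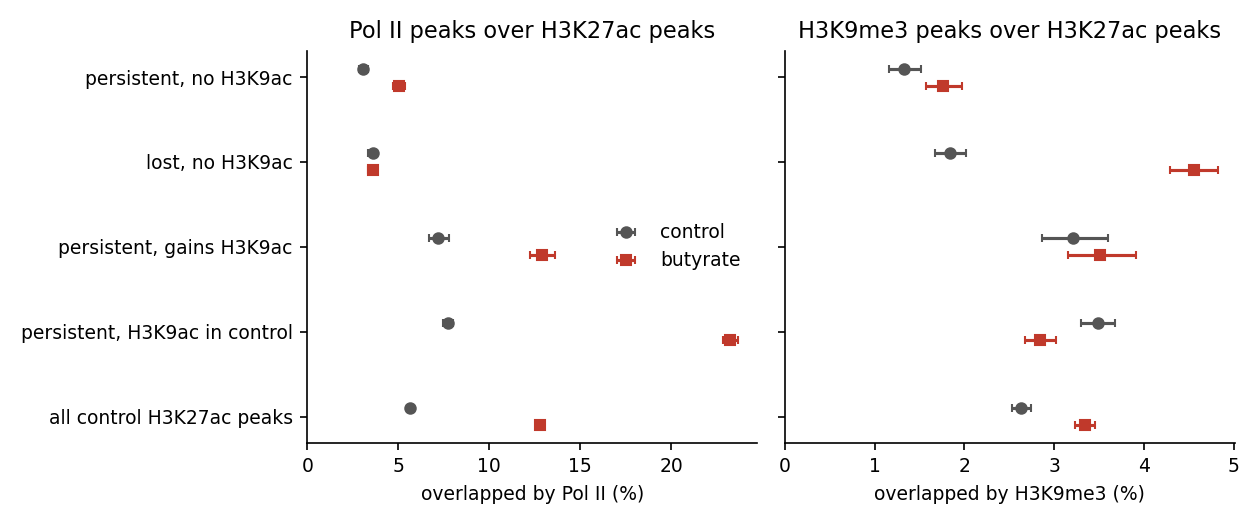
Share of control H3K27ac peaks overlapped by Pol II (left, percent) and by H3K9me3 (right, percent) in control cells (grey circles) and after butyrate (red squares), for the sites in the top row, for the other classes and for all control H3K27ac peaks. Bars are 95% Wilson intervals with 1 library for each point, and the sites lie at 3.07% and 5.02% for Pol II and at 1.33% and 1.76% for H3K9me3.

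Chromosomes 5 and 14 held more Pol II and H3K9me3 over H3K27ac peaks than the others. On these chromosomes together 12.9% of all control H3K27ac peaks met Pol II in control cells, against 4.75% elsewhere, but at the sites the values were 4.86% and 2.89%. After butyrate 5.82% (4.76% to 7.09%) of the sites on chromosomes 5 and 14 met Pol II and 4.94% (4.61% to 5.29%) of the others, with intervals that overlapped. Of all control H3K27ac peaks 16.4% and 12.4% did. The share of sites with Pol II went from 5.60% in control cells to 4.56% after butyrate on chromosome 5. On chromosome 14 it went from 3.67% to 7.83%. H3K9me3 after butyrate was at 3.71% (2.88% to 4.76%) of the sites on chromosomes 5 and 14 and at 1.56% (1.38% to 1.77%) of the others, against 9.55% and 2.60% of all control H3K27ac peaks. In control cells H3K9me3 was at 2.30% of the sites on these chromosomes and at 6.83% of the lost peaks there.

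The working name of the sites was distal and enhancer-like, but most of them lay within 1 kb of an H3K9ac peak. The median distance from a site to the nearest H3K9ac peak was 1.41 kb (1.35 to 1.47 kb) in control cells and 1.43 kb (1.37 to 1.48 kb) after butyrate, and 0.639 kb to the nearest of either condition. An H3K9ac peak of either condition lay within 1 kb of 10035 sites (59.8%), within 10 kb of 92.2% and within 50 kb of 98.9%. Lost peaks lay farther away, at a median of 3.83 kb in control cells, 3.94 kb after butyrate and 1.69 kb from either. The nearest H3K9ac peak was closer after butyrate at 8135 sites and farther at 8158. No gene annotation of this assembly was used here, so distance to gene starts was not measured. Whether the sites are distal was therefore not settled, and they are called persistent H3K27ac sites without H3K9ac.

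**Figure D4:**
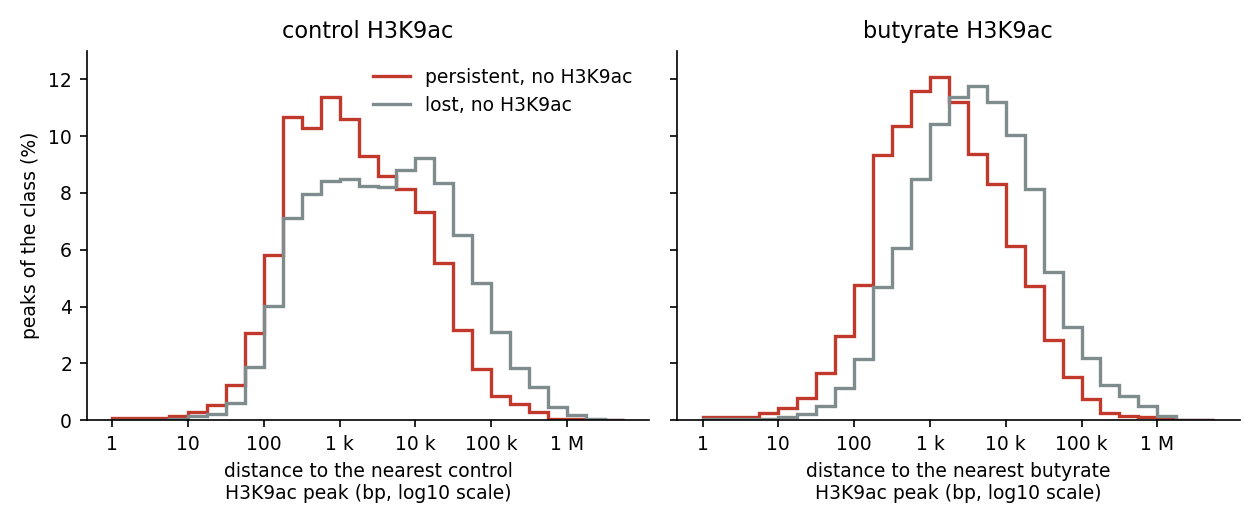
Distance from each peak to the nearest H3K9ac peak of control cells (left) and of butyrate cells (right), on a log10 axis in bp, as the percent of each class per bin of 0.25 on the log10 scale, for the sites (red) and the lost peaks without H3K9ac (grey). Touching peaks are counted in the first bin, and the sites have medians of 1.41 and 1.43 kb, to the left of the lost peaks at 3.83 and 3.94 kb.

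Several measures of the sites varied with this distance. Of all control H3K27ac peaks without H3K9ac, 51.8% persisted within 1 kb of an H3K9ac peak, 37.3% at 1 to 10 kb, 25.2% at 10 to 50 kb and 11.1% (9.68% to 12.7%) beyond 50 kb, where 181 sites lay. The median butyrate length at the sites was 419 bp, 355 bp, 322 bp and 289 bp in the same order, and the median log2 ratio 0.54, 0.35, 0.14 and 0.08. The median control length of the sites was between 258 and 277 bp throughout. For lost peaks it was 240, 227, 221 and 206 bp, so the shares that persisted were not compared at equal length. The share of sites with Pol II after butyrate was 5.36%, 4.73%, 3.17% and 6.63%, and the last value rested on 12 sites (3.83% to 11.2%). In control cells only 2 of the 181 sites beyond 50 kb met Pol II.

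The sites farthest from H3K9ac were small. The most remote, chr26:26991619-26991817, lay 1061 kb from the nearest H3K9ac peak after butyrate and 1135 kb in control cells, and it had the shortest length listed in control cells and 233 bp after butyrate. The next were chr6:66722890-66723088 and chr6:66723190-66723390, which shared a butyrate peak of 237 bp and lay 1038 kb from H3K9ac. The sites chr11:41773742-41773964, at 1030 kb, and chr7:76095162-76095430, at 651 kb, were covered by butyrate peaks of 228 and 237 bp. None of the 5 met Pol II or H3K9me3, and their nearest Pol II peak after butyrate was between 141 and 1025 kb away.

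Most sites had other H3K27ac peaks close by, as had most control H3K27ac peaks. The nearest other control H3K27ac peak was at a median of 0.628 kb, and it carried H3K9ac in control cells in 41.9% of cases. Over all control H3K27ac peaks the median was 0.507 kb and the share 50.5%. Another control H3K27ac peak lay within 5 kb of 81.9% of the sites and of 80.8% of all. Within 5 kb of 81.3% (80.7% to 81.9%) of the sites lay a butyrate H3K27ac peak that overlapped no control H3K27ac peak, called new here. This was so for 71.9% of all control H3K27ac peaks, 54.6% of lost peaks, 88.0% of peaks that gained H3K9ac and 77.2% of persistent peaks with H3K9ac in control cells. The share was 82.5% for sites within 1 kb of H3K9ac, 83.9% at 1 to 10 kb, 64.3% at 10 to 50 kb and 47.5% beyond 50 kb. New peaks come from the same contrast that chose the sites, so these shares are descriptions.

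The spacing of the sites along the chromosomes was uneven. The nearest other site was at a median of 7.68 kb and within 12500 bp for 58.5% of the sites. Another peak of the same class lay within this distance of 49.4% of lost peaks, 44.5% of peaks that gained H3K9ac, 84.5% of the larger class with H3K9ac in control cells and 89.2% of all control H3K27ac peaks. These classes differ in number of peaks, and the grouping was not shown to be particular to the sites. When sites within that distance were joined, 6973 (41.5%) stood alone and the others formed 3468 groups, of which 334 had 5 or more sites and held 2192 sites (13.1%). A total of 22 groups had 10 or more sites.

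The 3 largest groups differed in what surrounded them. The largest, chr19:17668981-17765790, spanned 96.8 kb and held 27 sites among 75 control H3K27ac peaks, with 45 H3K9ac peaks in control cells and 41 after butyrate. Each of its sites lay within 2390 bp of an H3K9ac peak, the number of Pol II peaks in the span was 4 in control cells and 15 after butyrate, and 17 of the 27 sites were longer after butyrate. The second group, chr19:14279095-14321801, held 22 sites in 42.7 kb, with 30 and 46 H3K27ac peaks but only 3 H3K9ac peaks in control cells and 1 after butyrate. Its sites had a median of 323 bp in control cells and 290 bp after butyrate. The group chr10:13559812-13603799, held 15 sites in 44.0 kb, where the H3K27ac lists gave 28 and 25 peaks while the H3K9ac lists gave 10 peaks in control cells and 0 after butyrate. None of the sites in these latter groups met Pol II after butyrate.

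**Figure D5:**
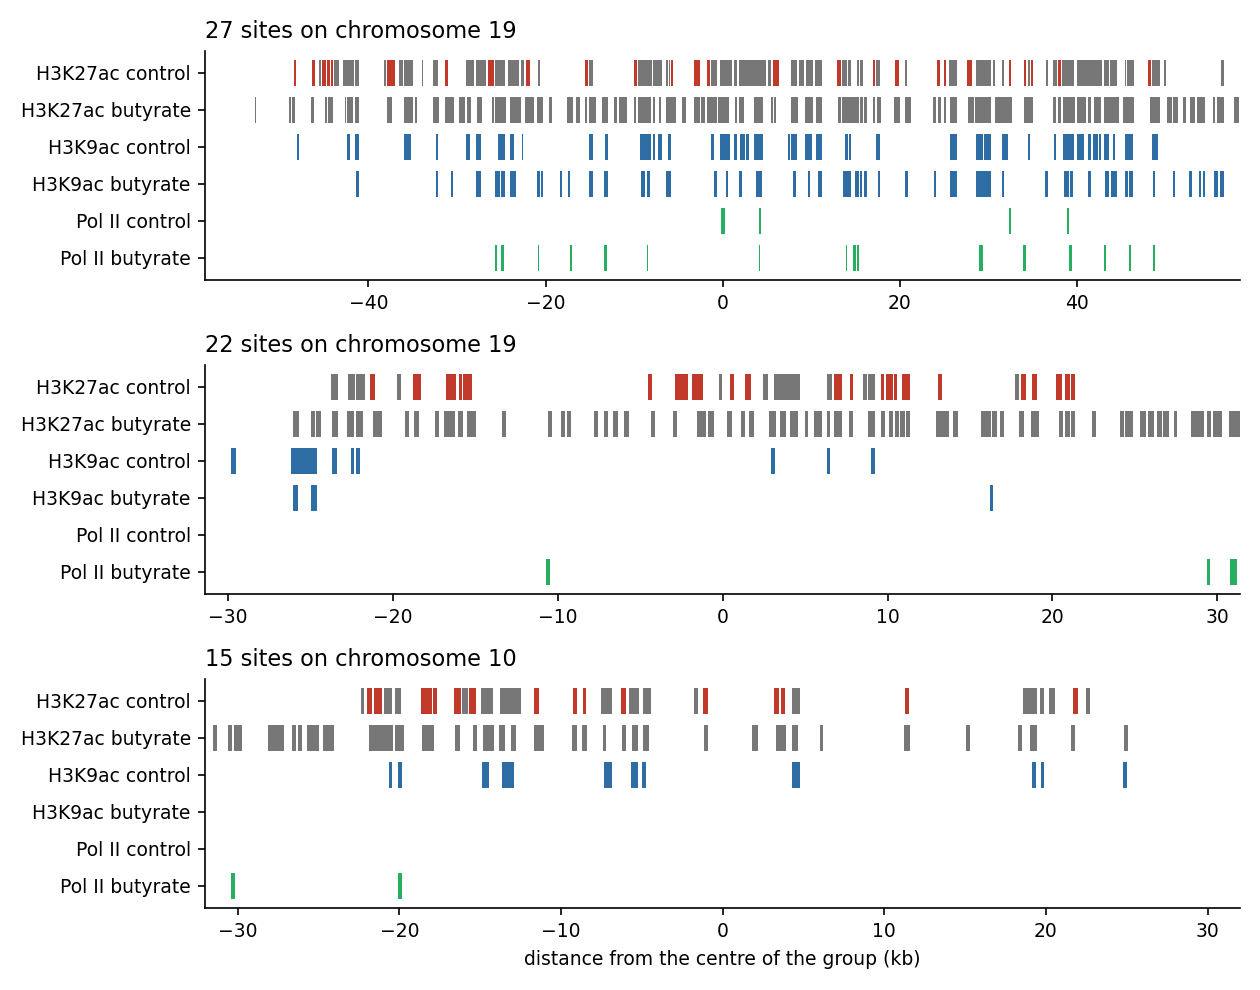
Peaks of H3K27ac, H3K9ac and Pol II in control and butyrate cells over the 3 largest groups of sites and 10 kb on either side, by distance from the centre of the group (kb, x axis), with each bar a listed peak and the sites in red. The first group has H3K9ac peaks throughout (45 and 41), the second has 3 and 1 within its span, and the last has 10 in control cells and 0 after butyrate.

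By windows of 1 Mb, 2055 of 2677 windows held at least 1 site, with a median of 6 sites in those. The 159 windows with 20 or more sites held 24.0% of all sites. The most were 50 sites in chr8:40000001-41000000, which were 19.8% of the control H3K27ac peaks there. The next windows were chr19:14000001-15000000 with 47 sites (33.1%), chr14:48000001-49000000 with 46 (27.9%), chr1:79000001-80000000 with 44 (28.2%) and chr19:22000001-23000000 with 43 (32.8%). In the window of chromosome 19 with 47 sites the median length was 321 bp in control cells and 285 bp after butyrate, whereas in the window of chromosome 1 it was 250 and 510 bp. Between 0 and 2 sites met Pol II in each window and condition.

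The sites were spread over all 30 chromosomes. Their share of the control H3K27ac peaks was between 14.8% on chromosome 5 and 22.3% on chromosome 19, where the sites per Mb were also densest, at 11.4 against 6.31 over all chromosomes. The X chromosome had 2.32 sites per Mb, and its share was 21.8%, although only 47.0% of its control H3K27ac peaks were retained, against 62.6% to 70.2% on the autosomes. The median log2 length ratio was above 0 on all 30 chromosomes, from 0.22 on X to 0.56 on chromosome 9. The share of sites with Pol II was higher after butyrate on 27 chromosomes and lower on 3, which were chromosome 5 (5.60% and 4.56%), chromosome 6 (4.85% and 4.18%) and chromosome 15 (3.80% and 3.47%).

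The deposited lists were not in order of position. Each ran through the chromosomes many times. The median peak length was greatest in the first part of each list, and in some lists it rose again later. What this order follows is not given in the sources used here. The sites lay at a median percentile of 54.7 of the control H3K27ac list, where 50 is the middle, and their butyrate peaks at 38.5 of the butyrate list. Persistent peaks with H3K9ac in control cells lay at 32.2 and 24.0.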

How the data were processed

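Peak positions from ChIP-seq of MDBK cells were used, for 4 antibodies in control and butyrate-treated cells, with 1 library for each. An input library was listed in the labels and was not analysed here. The submitters' processing notes name Trim Galore 0.4.1, BWA and MACS2. Per the study's methods for ChIP-seq, the authors removed reads that failed the instrument's quality filter, aligned the others to cattle assembly UMD3.1.1 (UMD3.1 in those notes) with BWA, kept uniquely aligned reads, and called peaks in each library with MACS2 at default settings against the MDBK input. The deposited files hold chromosome, start and end in bp, with no counts, signal or score. The study's supplementary material gives read totals, which were not used here, and the part of depth in peak number was not tested.

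Starts were read as counted from 0 and are printed with 1 added. The least difference between end and start was 199, so they may be counted from 1. Overlap needed 1 bp. Length after butyrate is that of the longest overlapping butyrate peak. Distances are gaps between peak edges. A new peak is a butyrate H3K27ac peak that overlaps no control H3K27ac peak. Shares have 95% Wilson intervals and medians exact binomial intervals (Python 3.11.15, numpy 2.4.6, scipy 1.17.1). Overlap and distance functions were tested on simulated data. No test between conditions was run.

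The sites, the classes compared and the rules for named regions were chosen with earlier results of these data known. Named regions were the 5 longest sites, the 5 largest gains and 5 largest falls in length, the 5 longest with Pol II in both conditions, the 5 farthest from H3K9ac, the 5 windows of 1 Mb with most sites, the 3 largest groups joined within 12.5 kb and the sites at the edge of the rule. Chromosomes 5, 6, 9, 14, 15, 19 and X were named after their values were seen. Mitochondrial peaks were left out. Alternatives were another minimum overlap, longer peaks, joined peaks, a gap to H3K9ac, a shorter butyrate list and fewer chromosomes. No gene names or sequences are given, since no genome or annotation of UMD3.1 was used here.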

Additional observations from a re-analysis of the deposited data

Results flagged for a closer look

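The share of peaks overlapped by H3K9me3 moved in opposite directions in some classes of control H3K27ac peaks, with intervals of control and butyrate that did not overlap in each of these classes. At the persistent sites without H3K9ac it was 1.33% in control cells and 1.76% after butyrate. At persistent peaks with H3K9ac in control cells it was 3.48% and 2.84%, a difference of -0.644 percentage points, and at the part of them with H3K9ac in both conditions it was 4.87% and 3.63%, a difference of -1.24 percentage points. At the other part, with H3K9ac in control cells alone, it was 1.29% and 1.58%, the same direction as at the sites. At the sites the intervals of the 2 conditions overlapped in 6 of the 8 other settings tried, among them the one without chromosomes 5 and 14 (1.23% and 1.56%). The H3K9me3 list grew from 25623 to 89478 nuclear peaks. The intervals cover counting error only and treat the conditions as separate, although the same peaks were scored in both. The difference between the classes was not tested, since each list came from 1 library.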

How the results depend on the processing

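No paired analysis was possible because there was only 1 library for each antibody and condition. Of 75 values recomputed, 27 stayed within the interval of the reported value (or within 1.5 times the reported count) and 48 lay outside it. The cause was not tested. Counts, shares and distances cannot be negative, so only the median log2 length ratio could change sign. It was above 0 in each setting. With at least 50% of a site covered, the median log2 length ratio was 0.53, Pol II was at 1.96% of sites in control cells and 3.48% after butyrate, H3K9me3 at 0.927% and 1.24%, 52.9% had another site within 12500 bp and 82.3% a new H3K27ac peak within 5 kb. A minimum of 500 bp in every list also dropped short H3K9ac peaks, so peaks entered that the rule had kept out. Only 1542 of the reported sites reached that length. Most Pol II and H3K9me3 peaks were dropped too, as their lists had medians of 218 to 235 bp, so shares with them are not comparable with those reported. With peaks of at least 500 bp in every list there were 4174 sites, with a ratio of 0.14, Pol II at 0.0479% and 1.15%, and H3K9me3 at 0% and 0.120%. The distance to H3K9ac of either condition was 3.40 kb, with another site near 33.7% and a new peak near 52.3%. With peaks under 1 kb apart joined there were 8545 sites, with 1.83, Pol II at 4.34% and 6.14%, H3K9me3 at 1.91% and 2.69%, 1.68 kb, 31.4% and 54.0% in the same order. With H3K9ac kept 1 kb away there were 6756 sites, with a ratio of 0.31, Pol II after butyrate at 4.51%, 3.101 kb, 41.2% and 79.6%. With the butyrate H3K27ac list reduced to the number of peaks of the control list by length, there were 10256 sites, with a ratio of 0.97, Pol II after butyrate at 5.57%, 0.531 kb, 48.6% and 61.0%. That setting kept only the longest butyrate peaks, so its ratio is not comparable with the reported one. Without chromosomes 5 and 14, H3K9me3 after butyrate was at 1.56%. With the first 50% of the control list, chosen after seeing the data, there were 7118 sites, with a ratio of 0.20, Pol II in control cells at 1.67%, H3K9me3 at 0.885% and 1.19%, 41.8% with another site and 84.9% with a new peak nearby. Another site lay within 5 kb of 42.3% of sites, and a new peak within 2 kb of 62.4% and within 10 kb of 89.5%. The share with Pol II was higher after butyrate in all 8 of these other settings, the one with a minimum of 500 bp included. They all drew on the same Pol II libraries, so they are not independent of each other. The log2 length ratio of 3 named sites was negative as reported and positive with nearby peaks joined: 0.27 for chr15:66003478-66005328, 1.00 for chr7:64148697-64150469 and 0.55 for chr9:19950883-19951759.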
